A study of Mus musculus with 7 samples.

Results

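A set of 10 genes of the Wnt pathway was followed through the cells of young and aged mouse mammary glands, namely Wnt4, Wnt5a, Wnt5b, Wnt10a, Lgr4, Lgr5, Rspo1, Sfrp1, Lrp5 and Axin2. They were chosen by gene symbol, and all 10 were found among the 27998 genes of the count matrix. Single-cell RNA-seq with the 10x Chromium 3′ v2 chemistry had been applied to the #4 mammary glands, lymph nodes removed, of 7 nulliparous females. All mice were at diestrus and of mixed background (FVB, 129 and C57BL/6J). The young group held 3 mice (Young A to C, aged 3 to 4 months) and the aged group held 4 mice (Aged A to D, aged 13 to 14 months), each with 1 library. The 13684 cells carry the cell type names of the authors, who clustered these same counts, so levels in different cell types are described without a test.

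Wnt proteins are secreted, lipid-modified ligands that bind Frizzled receptors together with the co-receptors Lrp5 and Lrp6. In the canonical branch, this stabilizes beta-catenin, which acts with TCF and LEF factors on target genes such as Axin2, itself a feedback inhibitor. R-spondins such as Rspo1 bind Lgr4, Lgr5 and Lgr6 and keep Frizzleds on the cell surface, whereas secreted Frizzled-related proteins such as Sfrp1 bind Wnts and limit their action. In the mammary gland, Wnt4 is known as a paracrine signal that progesterone induces in hormone-sensing (HS) luminal cells. Wnt5a is known mainly for signaling outside the beta-catenin branch. The other main epithelial cells are the alveolar (AV) luminal cells, which give rise to secretory cells, and the contractile myoepithelial cells.

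Each mouse gave between 1264 and 2865 cells and between 6652599 and 16999625 unique molecular identifiers (UMIs, 1 per captured mRNA molecule). The median cell held 4758.5 to 5253 UMIs in the young mice and 5582 to 7109.5 in the aged mice, and the median mitochondrial share was 3.18% to 3.68% and 2.48% to 2.82%, so that neither range overlapped between the age groups. The 10 genes were sparse, with 137 UMIs of Axin2 and 6317 of Wnt4 over all mice. Levels are given as CPM, the UMIs of a gene per 1000000 UMIs of 1 cell type in 1 mouse, and CPM was not corrected for gene length. Of the 54 marker genes checked for 7 cell types, 43 were highest in their own type. In HS cells 3 of 8 were, and Prlr, Pgr, Esr1 and Foxa1 were highest in the small HS-AV population, which the authors named for genes of both luminal types. The summed level of 8 AV markers in HS-AV cells was 3057 to 5961 CPM in young and 304 to 550 in aged mice. In the HS cells of aged mice it was 318 to 1094. Cell barcodes are written as a pair of joined parts in the young mice and as 1 run in the aged mice. The UMI totals that the authors list per cell equal the matrix sums in every young cell, whereas in the aged mice 27.5% to 36.4% of cells per mouse have a listed total above the sum, with a largest excess of 0.603%. With these differences, an effect of age cannot be told apart from one of library processing. Across mice, 101 barcodes occurred in more than 1 library, at most 10 in any pair of mice.

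On the GRCm38 (mm10) assembly, the ligand genes Wnt4, Wnt5a, Wnt5b and Wnt10a lie at chr4:137277489-137299726 (plus strand), chr14:28504750-28527448 (plus), chr6:119432531-119544347 (minus) and chr1:74791516-74804179 (plus). Rspo1, Lgr4 and Lgr5 lie at chr4:124986430-125009099 (plus), chr2:109917647-110014257 (plus) and chr10:115450311-115587780 (minus). Sfrp1, Lrp5 and Axin2 lie at chr8:23411502-23449632 (plus), chr19:3584828-3686564 (minus) and chr11:108920349-108950783 (plus). These are whole gene models, and reads of a 3′ library come mostly from the ends of transcripts.

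Promoter windows of RefSeq (GRCm38, 250 bases before to 50 after a transcription start) were at hand for 5 of the 10 genes, in 7 windows. The TCF/LEF motif CTTTGAT, searched on both strands, was present once, in the window of an internal start of Wnt5b, the ligand called higher with age in 2 cell types below. Over all 32851 windows, 3.73% held this motif. The window lies at chr6:119449337-119449636 on the minus strand and is printed 5′ to 3′, with the motif in capitals. A match describes the letters alone, and 3′ counts do not tell which Wnt5b start was used.
Wnt5b: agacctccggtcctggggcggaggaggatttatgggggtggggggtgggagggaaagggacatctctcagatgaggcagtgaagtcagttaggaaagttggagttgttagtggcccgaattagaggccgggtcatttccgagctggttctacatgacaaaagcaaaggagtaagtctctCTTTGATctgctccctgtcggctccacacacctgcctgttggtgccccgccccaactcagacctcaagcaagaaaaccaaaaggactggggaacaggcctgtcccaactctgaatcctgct

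The 4 ligands had their highest mean levels in epithelial cells. These were HS and HS-AV cells for both Wnt4 and Wnt5a, AV cells for Wnt5b and myoepithelial cells for Wnt10a. Wnt4 was at 341 CPM ± 145 (SD, n = 7 mice) in HS cells and at 325 ± 193 (n = 6) in HS-AV cells, which did not differ beyond their spread, since HS cells were higher in 3 of 6 mice. Aged A, B and D held only 6, 6 and 4 HS-AV cells, with 10, 15 and 2 Wnt4 UMIs. Their AV marker sum (304 to 550 CPM) was near that of aged HS cells (318 to 1094). In young mice alone, Wnt4 was at 290 ± 154 in HS and 315 ± 195 in HS-AV cells. The next type that all 7 mice held, AV cells, was at 26.8 ± 14.0. Wnt4 was found in 76.6% of HS cells (95% Wilson interval 74.7 to 78.3), which had a median of 7277 UMIs. It was found in 3.74% of vascular endothelial cells (2.96 to 4.71), which had a median of 4907 UMIs. With every cell thinned to 2000 UMIs, these shares were 41.9% and 1.43%. These intervals cover counting error only.

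Wnt5b had the reverse luminal pattern. It was at 130 CPM ± 41.5 in AV cells and 4.82 ± 2.29 in HS cells, and every mouse was higher in AV cells than the highest mouse was in myoepithelial cells, the next type at 27.5 ± 13.4. Wnt5b was detected in 57.7% of AV cells and in 3.04% of HS cells, or in 26.0% and 0.889% at 2000 UMIs per cell. Wnt10a was a myoepithelial gene, at 85.1 CPM ± 34.7, and all 7 mice lay above the highest fibroblast level. It was detected in 28.6% of myoepithelial cells, in 0.290% of AV cells and in 0.140% of HS cells. Fibroblasts had 11.7 CPM ± 16.4 of Wnt10a, with values of 14.2, 40.3 and 27.4 in Young A, Aged B and Aged D and 0 in the other 4 mice. Wnt5a was spread more widely, at 40.0 ± 23.4 (n = 6) in HS-AV, 32.5 ± 12.6 in HS, 18.6 ± 6.08 in fibroblasts and 15.3 ± 9.90 in myoepithelial cells. The ranges of neighbors in this order overlapped. The few HS-AV cells of Aged A, B and D held 0, 2 and 1 Wnt5a UMIs.

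**Figure D1:**
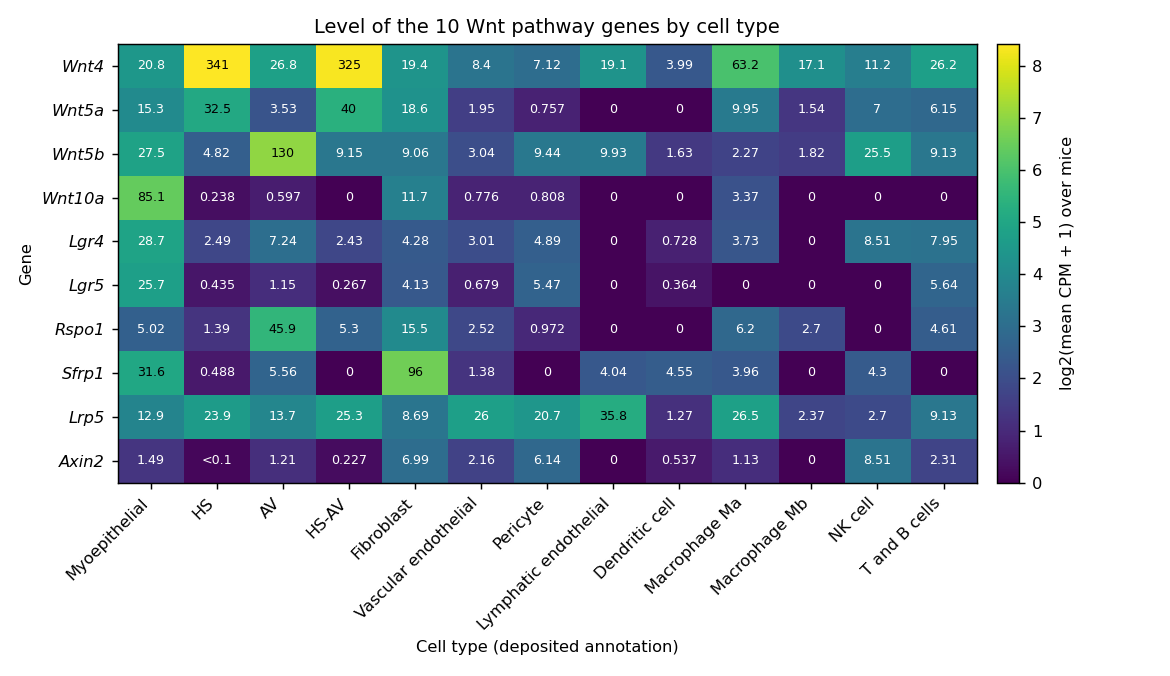
Heat map of the 10 genes (rows) in the 13 cell types (columns). Color is log2(mean CPM + 1) and the printed number is the mean CPM over mice with at least 3 such cells. Wnt4 stands at 341 CPM in HS cells, Wnt5b at 130 in AV cells, Wnt10a at 85.1 in myoepithelial cells and Sfrp1 at 96.0 in fibroblasts.

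The R-spondin receptors Lgr4 and Lgr5 were highest in myoepithelial cells. Lgr5, also a known Wnt target and stem cell marker in other epithelia, was at 25.7 CPM ± 9.97 there and at 1.15 ± 1.15 in AV and 0.435 ± 0.599 in HS cells. Lgr4 was at 28.7 ± 8.63 in myoepithelial cells and 7.24 ± 2.90 in AV cells. The ligand of these receptors, Rspo1, was instead highest in AV cells at 45.9 ± 49.5, followed by fibroblasts at 15.5 ± 8.74, and AV cells were higher in 6 of 7 mice. The large SD came from Young A. Lgr6, a further R-spondin receptor that is not among the 10 genes, was at 17.4 ± 7.11 in AV and 13.7 ± 9.84 in myoepithelial cells. Sfrp1 was at 96.0 ± 85.4 in fibroblasts, 31.6 ± 20.7 in myoepithelial cells and 5.56 ± 3.45 in AV cells. It was near 0 in HS cells (0.488 ± 0.531) and had no UMI in the 273 HS-AV cells, which allows a share of up to 1.10% of such cells with a UMI. This bound pools cells over mice and covers counting error only. The cells numbered 12, 130 and 115 in Young A to C and 6, 6, 0 and 4 in Aged A to D, so it says little about aged mice.

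Lrp5 and Axin2 were not confined to 1 lineage. Lrp5 was at 26.0 CPM ± 11.1 in vascular endothelial cells, 23.9 ± 3.84 in HS cells, 20.7 ± 13.9 in pericytes, 13.7 ± 3.82 in AV cells and 12.9 ± 6.96 in myoepithelial cells, with overlapping ranges. The 28 lymphatic endothelial cells had the highest mean, 35.8 ± 33.0 (n = 5), from 5 UMIs in all. Axin2 was low everywhere. Among the cell types with over 100 cells in all, its mean was highest in fibroblasts (6.99 ± 7.96) and pericytes (6.14 ± 5.39), and it was at 1.49 ± 1.51 in myoepithelial, 1.21 ± 1.29 in AV and 0.0987 ± 0.169 in HS cells.

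By the correlation of mean log2(CPM + 1) over the 13 cell types, among 11615 genes of at least 10 CPM in some type, each gene had close companions. These values describe 13 points that share libraries, and carry no p. The 3 genes most like Wnt4 were Spdef, Gm9930 and Gatb (r = 0.970 to 0.965). Wnt5b was nearest to Paqr6, Pdk4 and C530043A13Rik (0.964 to 0.952), and Wnt10a to Trp63, the transcription factor of basal epithelium (0.987), Elovl4 and Brinp3. Lgr5 was nearest to Abat, Tnfrsf11b, which encodes the RANKL decoy receptor osteoprotegerin (0.967), and Vsnl1. Lgr4 was nearest to Chadl, Col9a2 and Sox8 (0.947 to 0.932). Rspo1 was nearest to Nav3, Aldh1a3 and Dlx5 (0.945 to 0.920), and Sfrp1 to Fgf2, Prss12 and Ptx3 (0.951 to 0.943). Wnt5a was nearest to Gnpnat1, Cldn10 and Clip4 (0.929 to 0.921), Lrp5 to Cdc42ep1, Nup160 and Pds5a (0.959 to 0.939) and Axin2 to Ccl11, Pdgfrb and Cygb (0.931 to 0.927).

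To ask which of these genes differ with age within a cell type, UMIs were summed per mouse over the cells of a type and fitted with edgeR's quasi-likelihood test. A call required both an adjusted p under 0.05 (Benjamini-Hochberg, over all genes tested) and a minimum fold difference of 1.5. The log2 differences are aged minus young after TMM scaling, so they need not equal the ratio of mean CPM. Of 60 pairs of a gene and 1 of 6 cell types, 24 passed the filter on low counts and 6 were called. In aged mice, Wnt5b and Sfrp1 rose in both myoepithelial and AV cells, and Lrp5 fell in myoepithelial and vascular endothelial cells. No pair was called in HS cells or fibroblasts, and no gene of the 10 passed the filter in pericytes.

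In myoepithelial cells, 3 of the 8 genes tested were called (37.5%), where 27.7% of all 6740 genes tested were. Sfrp1, the Wnt inhibitor, was at 17.9, 9.83 and 9.74 CPM in Young A, B and C and at 63.4, 42.7, 29.2 and 48.5 in Aged A, B, C and D. Every aged mouse lay above every young mouse, and the log2 difference was 1.75 ± 0.35 (SE), a 3.36-fold rise (adjusted p = 0.00105, edgeR). The young sums held 19, 2 and 3 UMIs and the aged sums 69, 124, 19 and 85. The call was kept without any 1 mouse, with log2 differences of 1.63 to 2.35. The summed level of 8 fibroblast markers in myoepithelial cells was 447 to 825 CPM in young and 54.8 to 192 in aged mice. Of these, 5 of 8 were lower in every aged mouse. Most of each sum was Dcn, at 393 to 698 CPM in young and 50.8 to 165 in aged mice. The study lists Dcn among matrix genes that fell with age in myoepithelial cells. The part of these markers in the Sfrp1 result was not tested.

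Wnt5b was at 14.2, 14.7 and 19.5 CPM in the myoepithelial cells of the young mice and at 23.9, 29.3, 46.2 and 45.1 in those of the aged mice. The groups did not overlap, and the log2 difference was 1.29 ± 0.38 (adjusted p = 0.0149). The young sums were small, with 15, 3 and 6 UMIs, and without Young A the value was 1.13 and no longer called (adjusted p = 0.139). The summed level of 8 AV markers in myoepithelial cells was 1350 to 1428 CPM in young and 1066 to 1778 in aged mice, with 2 markers higher and 1 lower in every aged mouse, and their part in the result was not tested.

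Lrp5 was at 17.0, 14.7 and 26.0 CPM in young and 8.27, 5.86, 10.8 and 7.99 in aged myoepithelial cells, again without overlap. It fell by 1.19 on the log2 scale (SE 0.39, adjusted p = 0.0297), from 3 to 18 UMIs per mouse. The call was lost without Young A, Young C or Aged B (adjusted p = 0.111, 0.140 and 0.0857) and with DESeq2 (adjusted p = 0.0987). It was also lost without the filter on low counts (adjusted p = 0.0934) and when the study's fold minimum was required in every young and aged pair. The summed level of vascular endothelial markers in these cells was 51.9 to 78.6 CPM in young and 13.7 to 56.9 in aged mice, and their part in the result was not tested.

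The other myoepithelial genes were not called. Wnt10a was at 113, 44.2 and 51.9 CPM in young and 141, 77.2, 98.5 and 69.0 in aged mice, with a log2 difference of 0.34 ± 0.30 (adjusted p = 0.435). The groups overlapped through Young A alone, and without it the difference was 1.06 and called (adjusted p = 0.0370). Wnt5a and Lgr5 had lower values in every aged than in every young mouse. For Wnt5a these were 13.2, 34.4 and 22.7 CPM against 8.27, 12.1, 7.69 and 8.56 (log2 difference -0.90 ± 0.40, adjusted p = 0.100). For Lgr5 they were 26.4, 44.2 and 29.2 against 23.0, 23.4, 23.1 and 10.8 (-0.54 ± 0.33, adjusted p = 0.241). Lgr4 (0.17 ± 0.32) and Wnt4 (0.01 ± 0.42) had overlapping groups, and intervals that did not reach a 2-fold difference in either direction.

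In AV cells, 2 of 7 genes tested were called (28.6%), against 6.11% of all 11012 genes. Wnt5b was at 87.7, 86.3 and 114 CPM in young and 139, 189, 180 and 112 in aged mice. Aged D lay just below Young C, so the groups overlapped, and the log2 difference was 0.95 ± 0.22 (adjusted p = 0.0275), a 1.93-fold rise. Sfrp1 was at 2.31, 3.60 and 2.07 CPM in young and 11.4, 5.68, 5.05 and 8.86 in aged mice. These groups did not overlap, and the log2 difference was 1.95 ± 0.48 (adjusted p = 0.0365), from 2 to 5 UMIs per young mouse. Fibroblast markers in AV cells were lower in aged mice, at 10.5 to 37.3 CPM in sum against 91.7 to 421 in young mice. Of these, 6 of 8 were lower in every aged mouse. The largest part of each sum was Dcn, at 6.68 to 28.0 CPM in aged and 57.6 to 214 in young mice. The part of these markers in the Sfrp1 result was not tested.

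Neither AV call held in every subset of 6 mice. Wnt5b kept its direction but was not called without Young A, B or C or Aged B or C (log2 differences 0.83 to 1.11, adjusted p = 0.0586 to 0.0934). Sfrp1 was likewise not called without Young A, B or C or Aged A or D (1.71 to 2.09, adjusted p = 0.0627 to 0.166).

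Wnt4 in AV cells was at 53.7, 37.8 and 25.2 CPM in young and 18.6, 19.4, 17.6 and 15.5 in aged mice. All aged mice lay below all young mice, but the difference missed the threshold (-0.85 ± 0.24, adjusted p = 0.0627). It passed with DESeq2 (-0.87, adjusted p = 0.0366) and without Young C (-1.11, adjusted p = 0.0331). Wnt5a was at 5.19, 5.40 and 6.61 against 0.987, 2.29, 2.32 and 1.93 CPM (-1.33 ± 0.41, adjusted p = 0.0783). HS markers moved with both. Their summed level in AV cells was 365 to 476 CPM in young and 56.3 to 79.8 in aged mice, with 7 of 8 lower in every aged mouse and none of the 8 at 0 in all mice. Of these, Prlr, Pgr, Esr1, Areg and Cited1 were themselves called lower in AV cells, and their part in the Wnt4 and Wnt5a values was not tested.

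Rspo1 in AV cells was set by 1 mouse. It was at 152 CPM in Young A and at 5.40 and 11.6 in Young B and C, against 48.2, 23.1, 47.0 and 34.2 in the aged mice. With all mice the log2 difference was -0.35 ± 0.90 (adjusted p = 0.870). Without Young A it was 2.21 ± 0.45, in the opposite direction and called (adjusted p = 0.0373). Lgr4 (0.83 ± 0.36, adjusted p = 0.199) and Lrp5 (-0.19 ± 0.27, adjusted p = 0.750) were not called in AV cells.

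**Figure D2:**
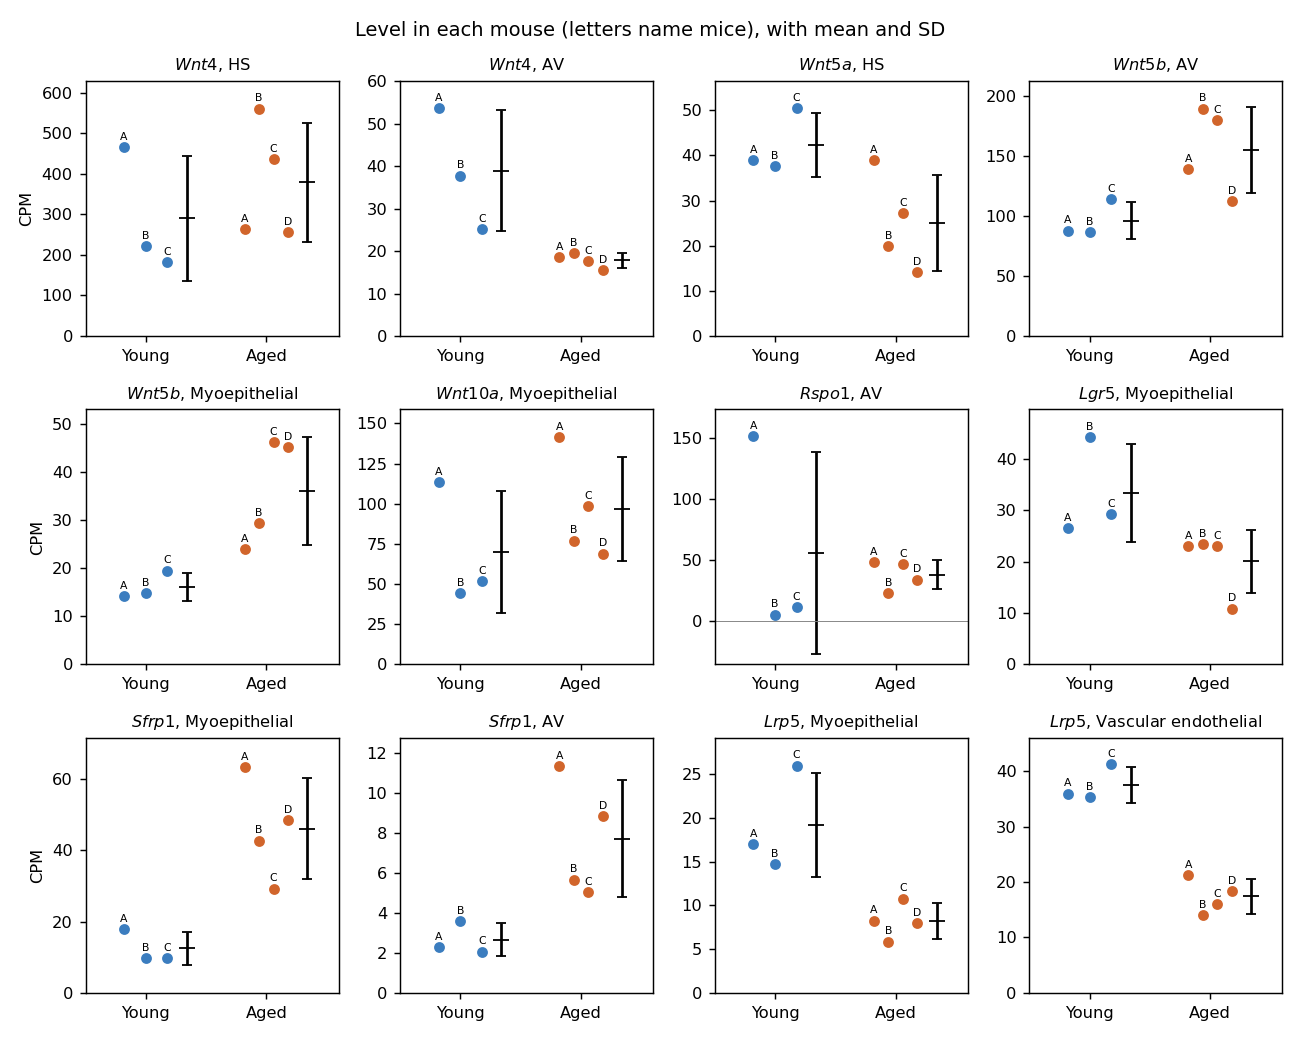
CPM (y axis) in each young and aged mouse (x axis), with one panel for each gene and cell type shown. Points are mice with their label letters, and the line and bar give the mean and SD of the group. Sfrp1 in myoepithelial cells and Lrp5 in vascular endothelial cells separate the groups, and Young A lies apart in Rspo1 of AV cells.

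In HS cells, 0 of 4 genes tested were called, where 6.39% of all 8457 genes were. Wnt5a alone had an unadjusted p under 0.05, and DESeq2 called 0 as well. Wnt4 was at 467, 222 and 182 CPM in young and 264, 562, 437 and 256 in aged mice, overlapping widely (0.54 ± 0.42, adjusted p = 0.494). Wnt5a was at 39.0, 37.7 and 50.5 in young and 39.0, 20.0, 27.2 and 14.2 in aged mice (-0.67 ± 0.24, adjusted p = 0.114). Aged A lay within the young range, and without it the difference was -0.91 and called (adjusted p = 0.0424). Lrp5 (-0.05 ± 0.22) and Wnt5b (0.10 ± 0.50) were centered near 0. The fibroblast marker sum in HS cells was 68.4 to 182 CPM in young and 289 to 1835 in aged mice, where Dcn was higher and Col1a1, Col3a1, Lum and Dpt were lower in every aged mouse.

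The hormone axis around Wnt4 was described in the same HS cells. Pgr, the progesterone receptor, was at 86.7, 105 and 114 CPM in young and 96.7, 104, 76.1 and 79.3 in aged mice (log2 difference -0.07 ± 0.18, adjusted p = 0.861). Esr1, the estrogen receptor, differed by 0.28 ± 0.18 (adjusted p = 0.374), the prolactin receptor Prlr by -0.44 ± 0.21 (adjusted p = 0.238), and Areg, an epidermal growth factor receptor ligand downstream of estrogen, by -0.66 ± 0.22 (adjusted p = 0.0913). Tnfsf11, which encodes the progesterone target RANKL, had 114 UMIs in the HS cells of Young A (41.5 CPM), 0 in Young B and C, and 1, 0, 3 and 5 in Aged A to D. Calca, the calcitonin gene, was likewise at 3589 CPM in Young A, at 14.3 and 7.03 in Young B and C and at 0.487 to 82.9 in the aged mice. Young A also had the highest Wnt4 level of the young mice (467 CPM). The highest Wnt4 level of all mice was in Aged B (562 CPM), which had no Tnfsf11 UMI and 0.487 CPM of Calca. A link of these genes with Wnt4 across mice was not tested.

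Within HS cells thinned to 2000 UMIs, Wnt4 was detected in 48.2% ± 13.3 (SD, n = 7 mice) of cells with a Pgr UMI and in 43.4% ± 13.4 of cells without one. The difference of 4.76 percentage points was positive in 5 of 7 mice (exact two-sided sign-flip permutation test, p = 0.266, where the smallest possible p was 0.0156). Wnt5a was detected in 8.53% ± 2.62 and 5.75% ± 3.19 of these cells, 2.78 points apart and higher in 5 of 7 mice (p = 0.0781 in the same exact test). Adjusted over both pairs by Benjamini-Hochberg, the p-values were 0.266 and 0.156. For Tnfsf11 only Young A held enough positive cells, and Wnt4 was detected in 67.7% of its 31 Tnfsf11-positive and 56.5% of its 391 other HS cells, with no test.

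In fibroblasts, 0 of 3 genes tested were called, against 3.34% of all 5513 genes. Only Sfrp1 had an unadjusted p under 0.05, and DESeq2 called 0. Sfrp1 was at 70.7, 34.6 and 51.4 CPM in young and 75.9, 276, 127 and 36.6 in aged mice (1.35 ± 0.49, adjusted p = 0.174). The aged fibroblasts were few, 15 cells in Aged C and 17 in Aged D, and the groups overlapped. Wnt5a was at 21.3, 28.8 and 22.4 in young and 15.5, 11.5, 12.7 and 18.3 in aged mice, without overlap but far from the threshold (-0.55 ± 0.39, adjusted p = 0.491). Rspo1 gave -0.01 ± 0.89.

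In vascular endothelial cells, 1 of 2 genes tested was called, against 26.2% of all 7864 genes. Lrp5, which is known to be required in retinal vessel growth, was at 36.0, 35.4 and 41.2 CPM in young and 21.2, 14.0, 16.0 and 18.4 in aged mice. The groups did not overlap, and Lrp5 fell by 0.74 on the log2 scale (SE 0.23, adjusted p = 0.0199). The call was lost without Young B, Young C or Aged B (adjusted p = 0.0516, 0.0575 and 0.0669) and with DESeq2 (adjusted p = 0.0880). Pericyte markers in these cells were at 135 to 436 CPM in young and 9.08 to 83.8 in aged mice, with 6 of 8 lower in every aged mouse. Endothelial markers were at 4401 to 5553 and 2492 to 3085, with 5 of 8 lower, and immune markers at 202 to 610 and 621 to 8705, with 2 of 8 lower and 1 higher. The higher immune marker was Cd74, which made up most of that sum, at 188 to 576 CPM in young and 617 to 8697 in aged mice. The lower ones were Lyz2 and Csf1r. The part of all these markers in the result was not tested. Wnt4 gave -0.08 ± 0.36.

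In pericytes, where 11.6% of all 2601 genes were called, none of the 10 genes was tested. Lrp5 was at 39.2, 28.3 and 32.0 CPM in young and 8.42, 5.30, 5.65 and 25.7 in aged pericytes, from only 1 to 3 UMIs per aged mouse.

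**Figure D3:**
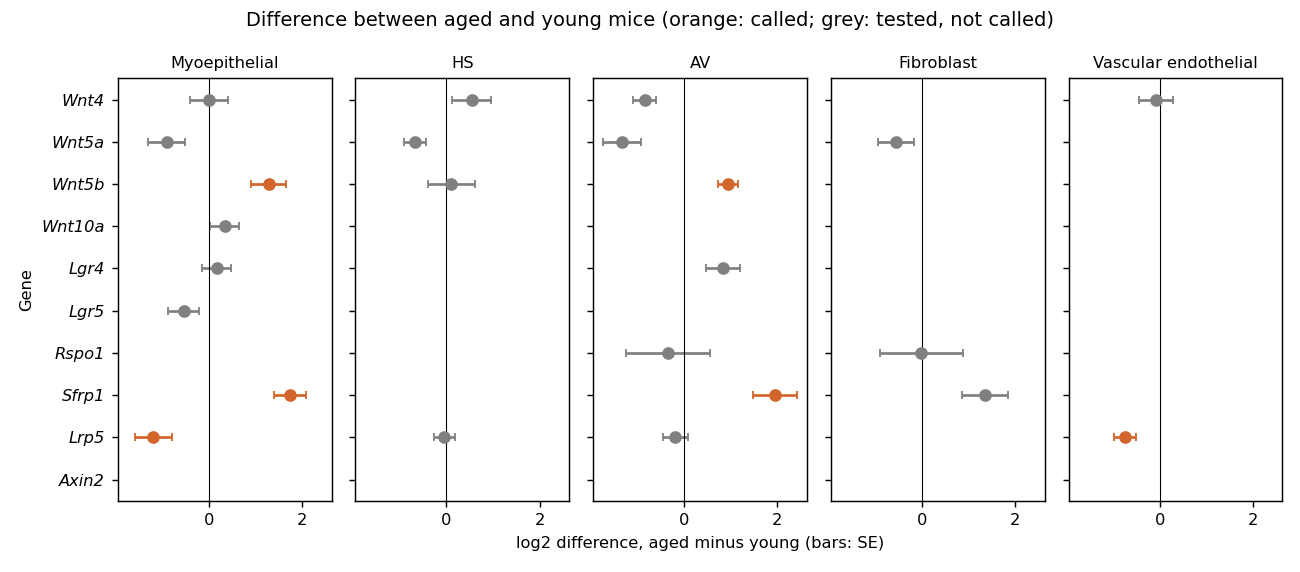
Log2 difference of aged minus young mice (x axis, points) with its SE (bars) for the genes (rows) that passed the filter in each of 5 cell types (panels), from edgeR. Orange marks called genes. Sfrp1 lies at 1.75 and 1.95 in myoepithelial and AV cells, Wnt5b at 1.29 and 0.95, and Lrp5 at -1.19 and -0.74 in myoepithelial and vascular endothelial cells.

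Whether the age differences themselves differed between cell types was tested with an interaction term, with the mouse as a block. Between HS and AV cells, 1 of 7 genes was called at an adjusted p under 0.05, against 2.47% of all 9838 genes. This was Wnt4, whose aged minus young difference was larger in HS than in AV cells by 1.30 ± 0.29 (log2, adjusted p = 0.0184, edgeR). The call was lost without Young A, B or C or Aged C (adjusted p = 0.0695, 0.0732, 0.124 and 0.0561), with differences of 1.22 to 1.41. Prlr, Pgr, Esr1, Areg and Cited1 were called in the same interaction and direction, at 1.88 to 2.97. Between myoepithelial and HS cells, 0 of 8 genes were called (9.99% of all 8480), with Wnt5b and Lrp5 at an unadjusted p under 0.05. Lrp5 came nearest, with a difference of -1.20 ± 0.45 (adjusted p = 0.0929). Between myoepithelial and AV cells, 0 of 9 were called (9.70% of all 9434), with Wnt4 and Rspo1 at an unadjusted p under 0.05. The Sfrp1 differences in these 2 cell types were 0.10 ± 0.72 apart. DESeq2 was not run for the interactions.

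Summed over all cells of a mouse, 4 of the 10 genes were called, against 32.3% of all 12983 genes. In such sums, fewer cells of a type and less RNA per cell cannot be told apart. On average, young and aged mice had 11.7% and 55.9% AV cells, 4.46% and 17.8% myoepithelial cells, 23.8% and 7.64% HS cells, and 25.5% and 2.76% fibroblasts.

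Wnt5b was at 17.3, 10.5 and 23.3 CPM of the whole sample in young and 86.6, 118, 133 and 73.2 in aged mice. It rose by 2.91 ± 0.34 on the log2 scale (adjusted p = 0.00136), and AV cells supplied 70.7% ± 1.85 of its UMIs in young and 93.7% ± 3.38 in aged mice. Lgr4 rose from 6.48, 4.21 and 4.96 to 10.9, 12.8, 8.72 and 7.18 CPM (2.38-fold, SE 0.22 on the log2 scale, adjusted p = 0.00419), but was called in no single cell type. AV cells supplied 13.5% of its UMIs in young and 54.5% in aged mice. For myoepithelial cells these shares were 24.0% and 37.3%, and for fibroblasts 31.8% and 0.893%. Wnt5a fell by 1.65 (SE 0.27, adjusted p = 0.00313), from 15.9, 20.3 and 29.1 to 7.17, 6.47, 4.41 and 4.10 CPM, and HS cells and fibroblasts supplied 57.3% and 23.6% of its UMIs in young mice, against 43.5% and 5.19% in aged mice.

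Axin2 fell by 1.07 (SE 0.31, adjusted p = 0.0253), from 2.87, 2.41 and 2.42 to 0.775, 0.941, 1.37 and 0.745 CPM. It was not called without Young A, B or C or Aged B or D (adjusted p = 0.0514 to 0.0819). With sums thinned to equal totals the log2 difference shrank to -0.649 and was not called (adjusted p = 0.165, edgeR). The call was also lost with the replicate block (adjusted p = 0.126, edgeR). Fibroblasts supplied 59.7% ± 18.8 of its UMIs in young mice and 12.5% ± 14.4 in aged mice, from 8 to 16 UMIs in each aged mouse. Axin2 passed the filter in no single cell type.

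The other 6 genes were not called in the whole sample. Sfrp1 was at 18.3, 5.26 and 16.3 CPM in young and 17.8, 13.6, 6.66 and 13.7 in aged mice (0.27 ± 0.44, adjusted p = 0.653). Fibroblasts supplied 88.2% ± 5.13 of its UMIs in young mice and 15.5% ± 9.36 in aged mice, in which myoepithelial and AV cells supplied 44.2% ± 14.0 and 38.5% ± 12.2. The shares of Lrp5 UMIs from AV cells were 9.84% ± 3.59 and 55.9% ± 8.60. Wnt4 stayed mainly an HS transcript, with 77.8% ± 5.65 and 68.7% ± 7.51 of UMIs from HS cells, while the level in the whole sample was 126, 87.6 and 85.9 in young and 47.2, 85.3, 47.8 and 32.2 in aged mice (-0.57 ± 0.29, adjusted p = 0.153), without overlap. Wnt4 was called lower without Aged B (-0.87, adjusted p = 0.0152). Wnt10a and Rspo1 were called higher in the aged whole sample without Young A (3.67 and 3.33, adjusted p = 0.00286 and 0.00407), against 1.50 and 1.43 with all mice (adjusted p = 0.172 and 0.181).

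**Figure D4:**
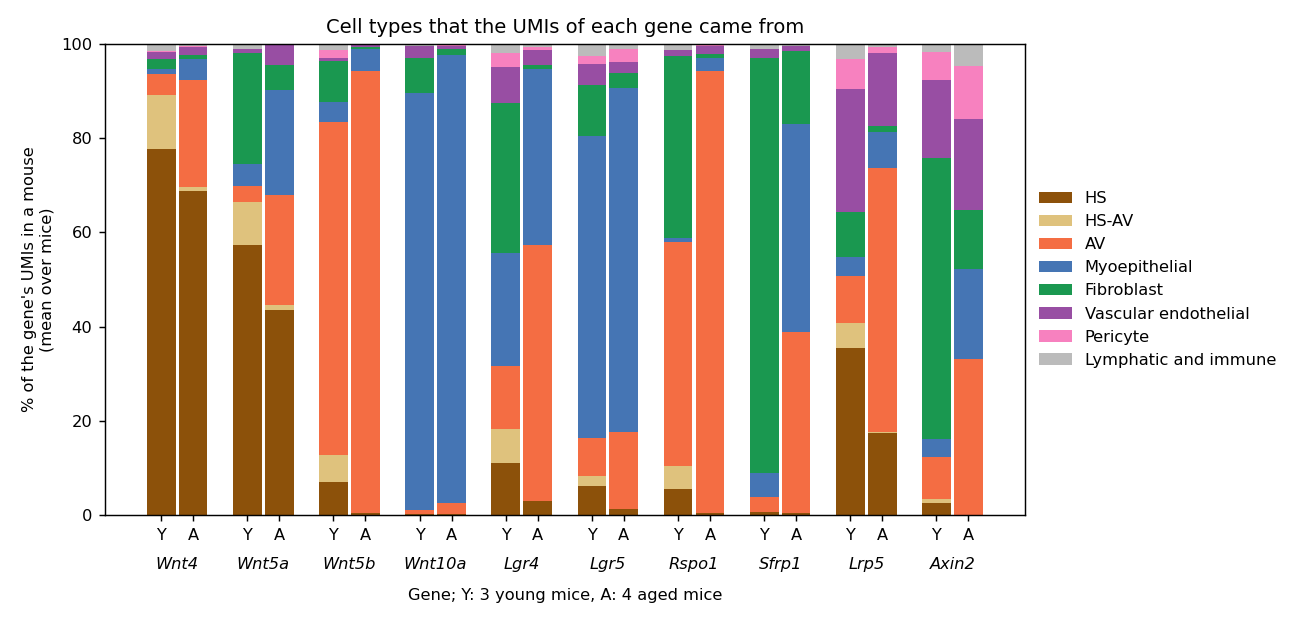
Stacked bars of the percent of each gene's UMIs that came from each cell type, as the mean over 3 young mice (Y) and 4 aged mice (A). Sfrp1 UMIs came mostly from fibroblasts in young mice (88.2%) and from myoepithelial and AV cells in aged mice, while Wnt10a UMIs were myoepithelial in both.

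Beside the 10 genes, 78 other genes of the pathway were listed by role. In myoepithelial cells 34 of these passed the filter, 6 rose and 6 fell, so that 35.3% were called, against 27.7% of all genes tested in these cells, and their median log2 difference was 0.04 against 0.01 over all genes. The genes that rose were the ligand Wnt11, the secreted inhibitor Wif1, the transcription factor Tcf7, and Myc, Cd44 and Procr, listed as targets. Those that fell were the R-spondin receptor Lgr6, the co-receptor Ptk7, Kremen1, Tcf7l1 and the feedback inhibitors Nkd1 and Nkd2. Procr was at 4.72 to 6.49 CPM in young and 23.4 to 51.3 in aged mice (2.94 ± 0.48, adjusted p = 0.000209). The smallest young sum, of Young B, held 203450 UMIs of all genes, so its Procr value rests on very few. Procr was far higher in vascular endothelial cells (below), and the part of their transcripts in this result was not tested. Cd44, an adhesion receptor, differed by 2.04 ± 0.22 (adjusted p = 3.69e-06). Lgr6 was at 21.7 to 26.0 CPM in young and 4.56 to 8.27 in aged mice (-1.76 ± 0.38, adjusted p = 0.00184), and Nkd1 and Tcf7l1 fell by 1.70 and 1.56.

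In vascular endothelial cells, 25 of the 78 passed the filter, 4 rose and 9 fell (52.0%, against 26.2% of all genes tested in these cells), and the median was -0.31 against -0.05 over all genes. Of these, Fzd5, Fzd8, Lrp6, Ctnnb1, which encodes beta-catenin, its inhibitor Ctnnbip1, Tcf7l1, Tcf7l2, Tle4 and Bcl9l fell. Wls, which carries Wnts to the cell surface, Dkk2, Myc and Procr rose. Ctnnbip1 was at 285 to 330 CPM in young and 38.7 to 67.7 in aged mice (-2.12 ± 0.17, adjusted p = 4.57e-08), and Fzd8 and Fzd5 fell by 1.65 and 1.31. Procr was at 83.8 to 110 CPM in young and 596 to 776 in aged mice (3.20 ± 0.17, adjusted p = 9.07e-10), and Myc differed by 1.51 ± 0.18. Scaling by library size alone moved the median of all genes here to -0.41.

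**Figure D5:**
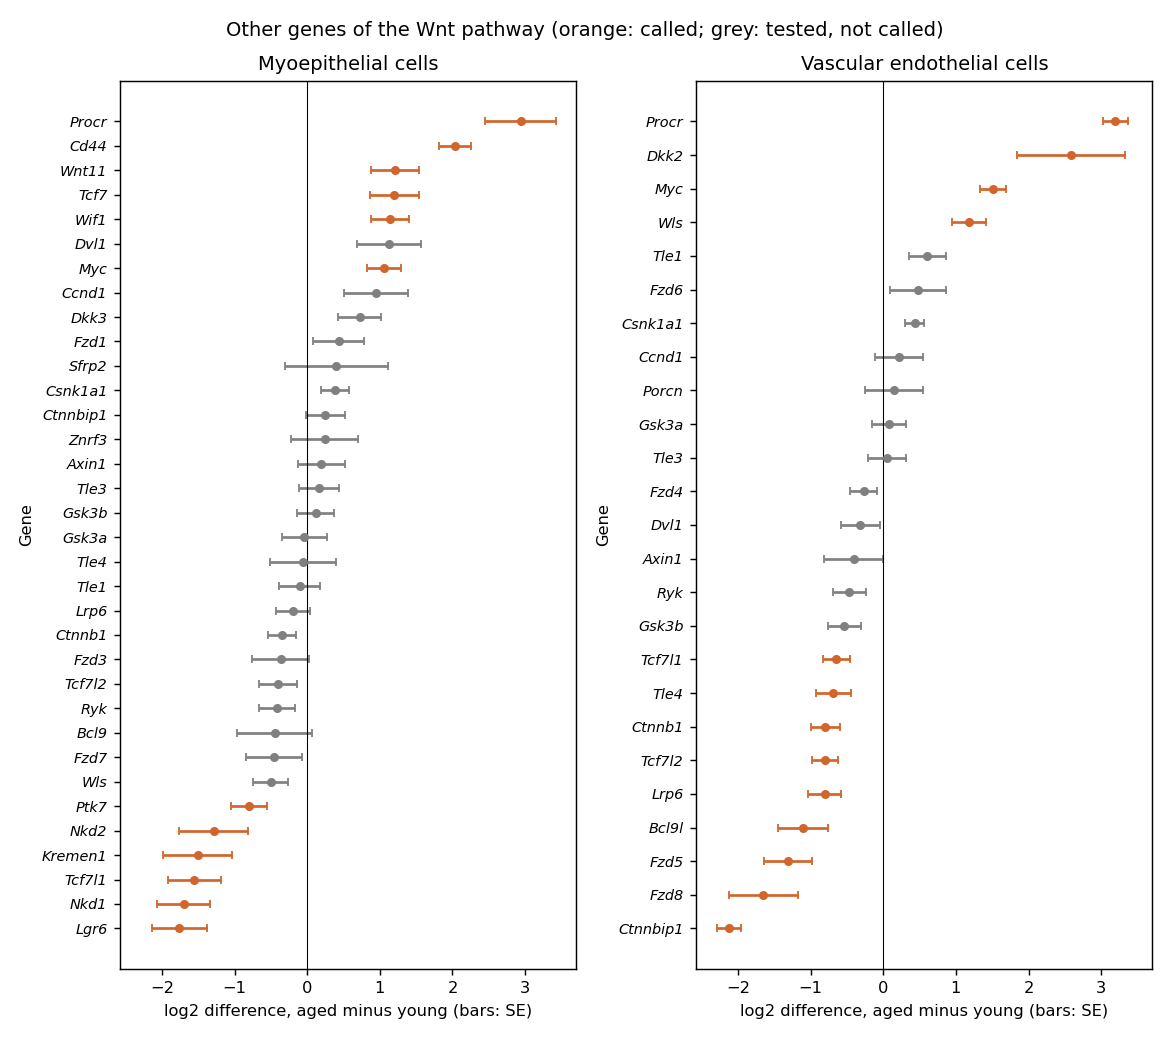
Log2 difference of aged minus young mice (x axis) with its SE (bars) for the other Wnt pathway genes tested in myoepithelial (left) and vascular endothelial cells (right), from edgeR. Orange marks called genes, of which 6 rose and 6 fell on the left and 4 rose and 9 fell on the right.

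Few other pathway genes were called elsewhere. In HS cells 2 of 27 were called, where 6.39% of all genes were. The ligand Wnt7b rose (21.5 to 26.5 CPM in young, 47.2 to 137 in aged mice, log2 difference 1.76 ± 0.29, adjusted p = 0.00859). Porcn, the acyltransferase that attaches the lipid to Wnts, fell by 1.39 (SE 0.31, adjusted p = 0.0218) in the same cells. In AV cells 0 of 42 were called, against 6.11% of all genes. In fibroblasts 1 of 27 was, against 3.34% of all genes, namely Nkd2 (2.38 ± 0.54, adjusted p = 0.0256), at 92.0 CPM in Aged B and 12.7 to 64.0 in the other aged mice against 4.61 to 10.9 in young mice. In pericytes 1 of 10 was, against 11.6% of all genes, namely Myc (0.87 ± 0.25, adjusted p = 0.0362). In the whole sample 21 of 55 were called (38.2%, against 32.3% of all genes), 11 higher and 10 lower in aged mice. Wnt2 (-4.26), Sfrp4 (-3.31), Fzd10 (-2.31) and Dkk2 (-2.25) were lowest and Wif1 (2.98) was highest among those without overlap. Wnt2 and Sfrp4 were at 77.7 and 400 CPM in fibroblasts.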

How the data were processed

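Per the labels and the study's methods, 10x Chromium 3′ v2 libraries, 1 per mouse, were processed by the authors with Cell Ranger 2.0 against mm10, and cells were filtered before deposit. The deposited values used were raw UMI counts per gene and cell, with the cell type names of the authors. The mitochondrial share of UMIs was read from the deposited fraction per cell (median per mouse 3.18% to 3.68% in young and 2.48% to 2.82% in aged mice). The authors filtered cells to remove likely doublets and estimated the rest with Scrublet and DoubletFinder. No doublet caller was run here.

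The counts of a cell type were added within each mouse that held 3 or more of its cells. Age was tested with edgeR 4.0.16 (filterByExpr, TMM, robust quasi-likelihood fit) in R 4.3.3, and called at an adjusted p under 0.05 and at least 1.5-fold. Mice, not cells, were the replicates. The study's further criterion, a minimum fold in every pair of a young and an aged mouse, was 1 of the alternatives. DESeq2 1.42.0, other scalings and filters, thinned sums, a replicate block and leaving out each mouse were the alternatives. In simulated data with 200 changed genes, 16% (AV cells) to 55% (pericytes) of 2-fold and 76% (AV cells) to 95% (HS cells) of 4-fold changes were recovered. Percentages and levels came from Python 3.11.15 with numpy 2.4.6, pandas 2.3.3 and scipy 1.17.1.

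All 10 genes are named throughout. Of the other pathway genes, up to 5 called ones per cell type whose groups did not overlap are given with values, by size of change, and the remaining called genes are named only. Wnt2 and Sfrp4 are also given by level in fibroblasts. The genes and lists were chosen with earlier results of these data known.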

Additional observations from a re-analysis of the deposited data

Results flagged for a closer look

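In 34 groups of 4 aged mice, the lowest or highest mouse was compared with the others by Dixon's ratio, which flags about 1 in 20 groups by chance. Lgr5 in myoepithelial cells was at 10.8 CPM in Aged D, below 23.0, 23.1 and 23.4 in the other aged mice, a gap of 0.964 of the group's range. Wnt4 in vascular endothelial cells was at 5.08 CPM in Aged D, below 8.02, 8.38 and 8.48, a gap of 0.866 of the range. Neither gene was called there.

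The age difference of Wnt4 was called as differing between HS and AV cells, though Wnt4 was called in neither type alone. It was larger in HS than in AV cells by 1.30 on the log2 scale (edgeR interaction, adjusted p = 0.0184), and HS markers in AV cells differed in the same direction. The call was lost without Young A, B or C or Aged C (adjusted p = 0.0561 to 0.124, same test).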

How the results depend on the processing

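The count of the 10 genes called moved under several alternatives. With the main settings it was 3 of 8 tested in myoepithelial cells (27.7% of all genes called). It was 2 of 7 in AV cells (6.11%) and 1 of 2 in vascular endothelial cells (26.2%). With sums thinned to equal totals the count was 1 in myoepithelial, 1 in AV and 0 in vascular endothelial cells. Thinning also lowered the calls over all genes in myoepithelial and AV cells, as given below. With the replicate block the count was 1 in myoepithelial and 1 in AV cells, and calls over all genes also fell in AV cells. Without a filter on low counts it was 1 in HS cells (Wnt5a) and 1 in fibroblasts (Sfrp1). Lrp5 in myoepithelial cells lost its call without the filter and under the fold minimum in every pair, which left 2 of the 3 calls there under each. It was 1 in AV cells when the study's smaller fold minimum was also required in every pair of a young and an aged mouse (Wnt5b lost), and 0 in vascular endothelial cells with DESeq2. Leaving out each mouse gave 2 to 3 in myoepithelial, 0 to 1 in HS, 0 to 1 in AV and 0 to 1 in vascular endothelial cells, 3 to 5 in the whole sample and 0 to 1 for the HS against AV interaction. Rspo1 in AV cells was -0.35 with all mice and -0.86 to 2.21 with each left out, the highest without Young A. Axin2 in the whole sample was not called with thinned sums or with the replicate block (adjusted p = 0.165 and 0.126, edgeR). Sfrp1 in myoepithelial cells was called under each alternative, with log2 differences of 1.63 to 2.35. For the other calls lost, the cause was not tested. The filter on low counts was applied again to the thinned sums, of 203450 UMIs per mouse in myoepithelial and 555978 in AV cells. A call lost under thinning can therefore mean a gene that no longer passed the filter.

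The letters of the labels showed no sign of pairing the mice. The correlations of deviations were -0.280 to 0.106 for the same letter and -0.415 to 0.288 for different letters. With so few mice, these values cannot exclude a pairing. With the replicate block, calls over all genes numbered 205 for HS cells (540 without it), 439 for AV cells (673), 68 for fibroblasts (184), 201 for pericytes (303) and 2479 for the whole sample (4190). A minimum of 10 cells per mouse removed no mouse. Over all genes, thinning gave 707 calls in myoepithelial, 286 in HS, 161 in AV and 55 in fibroblast sums and 188 in pericytes. The main settings gave 1867, 540, 673, 184 and 303 in these types. No filter gave 1142 in HS cells, 576 in fibroblasts, 551 in pericytes and 469 for the HS against AV interaction. Requiring that minimum in every pair gave 1131 in myoepithelial and 1374 in vascular endothelial cells, 121 in fibroblasts and 194 in pericytes, and library size alone gave 1035 in AV cells. Leaving out a mouse gave as few as 1002 in myoepithelial, 141 in HS and 210 in AV cells, 74 in fibroblasts and 137 in pericytes, and 486, 391 and 91 for the interactions of myoepithelial with HS, myoepithelial with AV and HS with AV cells.

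Library size alone moved the median of all genes to between -0.10 and -0.41, and the share of calls that were higher in aged mice from 46.1% to 36.0% in myoepithelial, 63.3% to 37.9% in HS, 47.7% to 17.0% in AV and 54.2% to 21.3% in vascular endothelial cells, 62.5% to 49.3% in fibroblasts, 60.4% to 34.2% in pericytes and 49.0% to 21.1% in the whole sample. Under it, Wnt4 (-1.12) and Wnt5a (-1.60) were called and Wnt5b (0.68) was not called in AV cells. Low UMI sums limit Axin2, Lgr5 and Rspo1 outside their main cell types.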
